A study of Homo sapiens with 12 samples.

Results

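The 33 genes described here are listed as regulators, partners and target genes of the tumour suppressor p53. They were taken by name from a total RNA count table of 54261 genes. They were compared between the human colorectal carcinoma line HCT116 (parental) and HCT116oxR, a line selected from it by growth in oxaliplatin, a platinum drug that forms DNA adducts. Selection began at 0.1 µmol/L and rose in steps to 5 µmol/L, which was kept for 1 year, per the labels' protocols. For each line there were 3 libraries of total RNA and 3 of small RNA, made from cultures that were grown and harvested separately. Only 1 resistant line was studied, so p-values below reflect how cultures of a line vary and say nothing of how other resistant lines would. Whether the drug was in the medium at harvest, and whether HCT116oxR descends from 1 clone, is not given in the sources used here.

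The transcription factor p53 is stabilised when DNA is damaged, binds paired copies of a short DNA element near its target genes, and turns on genes of cell cycle arrest, DNA repair, metabolism and cell death. MDM2, itself a target, marks p53 for degradation and closes a feedback loop, while p21, the product of CDKN1A, blocks cyclin-dependent kinases and thereby lets the DREAM complex repress genes of cell division. HCT116 is a standard line for work on this pathway.

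The total RNA libraries held 11950069 to 13558077 counts and the small RNA libraries 16089595 to 18147051. Levels are given as CPM, counts scaled to a common library size (TMM factors applied), as mean ± SD over 3 libraries, and changes as the log2 fold change of HCT116oxR over parental cells ± its standard error (SE). A gene is called changed at a Benjamini-Hochberg adjusted p under 0.05 in the edgeR quasi-likelihood test over all genes tested. Of 13 epithelial markers, 3 were under 1 CPM in every library (VIL1, CDX1 and CEACAM5, the last at 0 throughout), and their summed level was 3298 to 3408 CPM in parental and 4085 to 4171 CPM in HCT116oxR libraries. The leukocyte genes PTPRC, CD3E, CD3D and MS4A1 had 0 counts in all 6 libraries. The 10 leukocyte markers summed to 13.5 to 16.1 CPM in parental and 7.01 to 8.66 CPM in HCT116oxR cells. Most of this was CD68 (mean 11.8 and 5.57 CPM) and ITGAM (2.55 and 1.28 CPM), both called lower in HCT116oxR. The 8 fibroblast markers, most of it COL1A1, summed to 55.7 to 69.1 CPM against 46.8 to 52.2 CPM, and the 6 endothelial markers to 1.66 to 2.83 CPM against 3.01 to 4.43 CPM. The part of these other markers in the results below was not tested.

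The p53 genes did not move as a block. Of the 33, 30 had enough counts to be tested, and 7 of these rose in HCT116oxR, 12 fell and 11 did not pass the threshold. The genes that rose were ZMAT1, EDA2R, TP53I3, TP53INP1, TP53I11, CCNG2 and CCNG1. Those that fell, in order of their fold, were GDF15, SFN, CES2, GADD45A, DRAM1, PERP, GADD45B, PPM1D, NINJ1, CDKN1A, TP53BP1 and PLK3. AEN, SPATA18 and TP63 had too few counts for the test, and ZMAT1 passed the count filter through its HCT116oxR libraries only. EDA2R did so with 1 parental library besides.

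The share of p53 genes called, 63.3% of the 30 tested, stands beside a large background. Over all 17511 genes tested 44.1% were called, 22.3% as higher and 21.8% as lower. The p53 genes had 23.3% higher and 40% lower. The libraries of the lines did not overlap for 23 p53 genes, 76.7% of those tested, against 50.5% of all genes. Tested against a fold of 1.5 in place of no change, 8 p53 genes passed, 5 higher (ZMAT1, EDA2R, TP53I3, TP53INP1 and TP53I11) and 3 lower (GDF15, SFN and CES2), which is 26.7% against 8.17% of all genes. The median log2 fold change of the 30 was -0.07, with a median absolute value of 0.42 against 0.27 over all genes tested. The p53 genes were chosen with earlier results of these data known. ZMAT1 also reached the test through its HCT116oxR libraries only. These shares are therefore descriptions, and whether p53 genes changed more than other genes was not tested. Summed, the p53 genes took 0.306% to 0.309% of the counts of parental libraries and 0.269% to 0.272% of those of HCT116oxR libraries. This sum is weighted to genes with many counts and does not describe each gene. In RNA from whole cultures, fewer cells with a transcript and less of it per cell cannot be told apart.

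**Figure D1:**
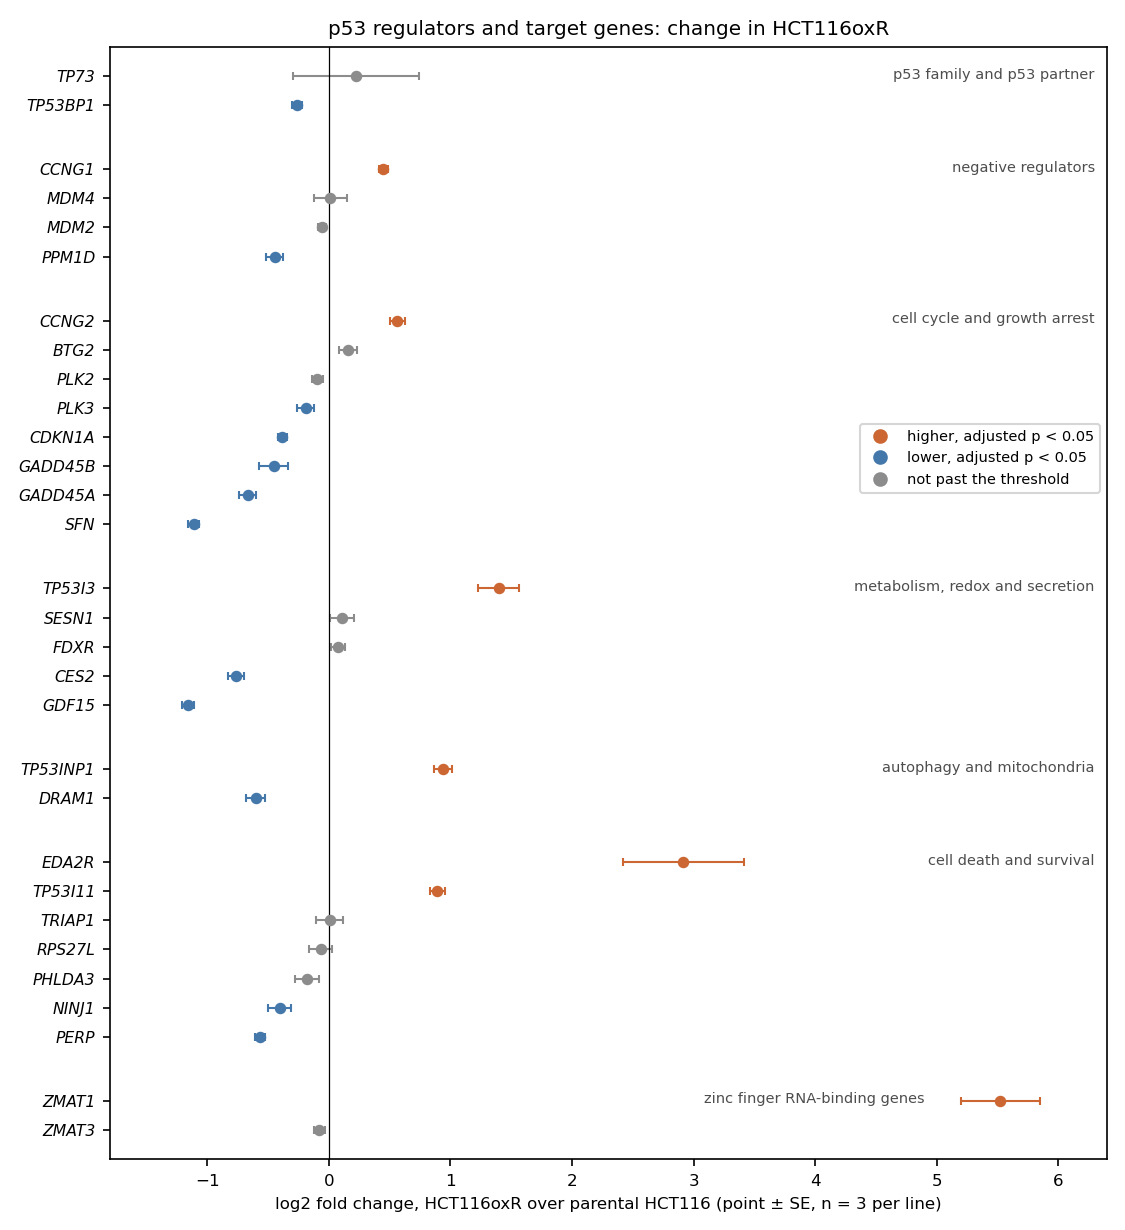
Log2 fold change of HCT116oxR over parental HCT116 for the 30 tested p53 regulators and target genes, grouped by role (points, with bars of ± SE from the edgeR fit on 3 libraries per line). Orange points are the 7 genes that rose, blue points the 12 that fell and grey points the 11 that did not pass; each role except the zinc finger pair and the p53 family pair holds both orange and blue points.

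Genes of the p53 family relatives were close to absent. TP63, whose product has a DNA-binding domain like that of p53 and governs squamous epithelia, had 0, 0 and 5 counts in the parental and 0, 4 and 0 in the HCT116oxR libraries. TP73, the other relative, had 10, 17 and 3 parental counts and 15, 15 and 7 in HCT116oxR. The groups overlapped for TP73, and its change of 0.22 ± 0.52 (edgeR, adjusted p = 0.770) was not detectable at this depth. TP53BP1 encodes 53BP1, a partner of p53 that binds chromatin at DNA breaks. It fell from 264 ± 4.08 to 220.1 ± 7.19 CPM (-0.26 ± 0.04, edgeR adjusted p = 1.91e-09), with no overlap between the lines. It shares bases with TUBGCP4, which stood at 0.18 ± 0.09.

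Among the genes that restrain p53, MDM2 and MDM4 did not pass and the other 2 went opposite ways. MDM2, the ubiquitin ligase of p53, was at 556, 559 and 541 CPM in parental and 539, 519 and 535 CPM in HCT116oxR libraries. The ranges lie next to each other without overlap, with means of 552 ± 9.66 and 531 ± 10.7 CPM, and the change of -0.06 ± 0.03 did not pass (edgeR, adjusted p = 0.132). MDM4, the partner of MDM2 that masks the activation domain of p53, had 146, 167 and 187 parental and 171, 187 and 170 HCT116oxR counts. Its ranges overlapped almost entirely (0.01 ± 0.14, edgeR adjusted p = 0.962). PPM1D encodes WIP1, the phosphatase that reverses damage signalling to p53. It fell from 62.7 ± 6.10 to 46.0 ± 1.65 CPM (-0.45 ± 0.07, edgeR adjusted p = 3.52e-08). Its lowest parental library, at 58.3 CPM, lay above its highest HCT116oxR library, at 47.5 CPM.

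CCNG1, the gene of cyclin G1, a p53 target that acts with MDM2 and the phosphatase PP2A, rose. Parental libraries held 179, 193 and 184 CPM and HCT116oxR libraries 258, 251 and 249 CPM, with every HCT116oxR library above every parental one. The log2 fold change was 0.45 ± 0.04 (edgeR, adjusted p = 1.58e-19). CCNG1 shares bases with NUDCD2, which stood at -0.09 ± 0.10 and did not pass.

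The p53 response element consists of 2 copies of a decamer, each made of 3 purines, a C, 2 bases that are A or T, a G and 3 pyrimidines, with 0 to 13 bases between them. RefSeq windows from 250 bases before to 50 after each annotated start (GRCh38.p14) were searched for it on both strands, which are equivalent because the element is its own reverse complement. Windows were matched for 30 of the 33 genes. No window of these genes held the full element, which 0.0366% of 27305 genes with a window do. With up to 2 mismatches outside the fixed C and G, an allowance chosen after the exact search found none, 4 of the 30 (13.3%) held a match, against 3.62% of all genes. MDM2 has 4 windows, TP73 has 3, FDXR 2 and AEN 1, so that they had unequal chances of a match. The matches are shown because MDM2, TP73 and FDXR are the tested genes with the closest matches to the element in their windows, and none of them passed the test between the lines. Capitals mark the bases of the decamers.
MDM2: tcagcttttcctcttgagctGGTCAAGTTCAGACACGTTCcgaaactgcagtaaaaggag
TP73: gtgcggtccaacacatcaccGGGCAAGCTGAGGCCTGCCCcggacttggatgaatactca
AEN: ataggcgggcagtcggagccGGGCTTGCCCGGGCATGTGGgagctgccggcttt
FDXR: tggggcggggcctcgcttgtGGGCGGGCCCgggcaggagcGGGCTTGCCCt
They lie at chr12:68808903-68808962 (plus strand), chr1:3690576-3690635 (plus), chr15:88621286-88621339 (plus) and chr17:74872995-74873045 (minus). The MDM2 match ends 74 bases before a start inside the gene, which spans chr12:68808172-68850686. In MDM2, TP73 and AEN the decamers adjoin, and in FDXR 10 bases separate them. A single exact decamer was found in 5 of the 30 genes (16.7%: AEN, FDXR, PLK2, RPS27L and SESN1), against 8.06% of all genes. The windows of CDKN1A and SFN came no closer than 4 mismatches, that of GDF15 no closer than 3 and that of ZMAT1 no closer than 6. These matches describe letters in short windows, and the known elements of many p53 targets lie outside such windows.

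Of 8 genes that act on the cell cycle and growth arrest, 5 fell, 1 rose and 2 did not pass. Among all genes tested 21.8% fell and 22.3% rose. SFN, at chr1:26863149-26864456, encodes 14-3-3 sigma, which holds cyclin B1 and CDK1 in the cytoplasm after DNA damage. Parental libraries held 218, 218 and 233 CPM of it and HCT116oxR libraries 94.0, 106 and 109 CPM. The lines were far apart, and SFN was 2.16-fold lower in HCT116oxR (-1.11 ± 0.05, edgeR adjusted p = 1.55e-44). GADD45A, a damage-induced gene whose product binds PCNA and the CDK1 complex, held 65.1, 68.3 and 65.3 CPM against 43.1, 42.3 and 39.5 CPM. All its HCT116oxR libraries were lower (-0.67 ± 0.07, edgeR adjusted p = 2.27e-15). Its relative GADD45B fell from 21.1 ± 1.68 to 15.4 ± 1.92 CPM (-0.46 ± 0.12, edgeR adjusted p = 7.67e-04).

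CDKN1A, the p21 gene and best known arrest target, had 329, 334 and 330.4 CPM in parental and 253, 258 and 251 CPM in HCT116oxR libraries. Its fall was 1.30-fold with a narrow spread inside each line. Of the polo-like kinase genes in the group, PLK3 fell from 63.4 ± 1.92 to 55.5 ± 1.51 CPM (-0.19 ± 0.07, edgeR adjusted p = 0.0117), a call that was lost without parental replicate 3 (-0.17, adjusted p = 0.0551). PLK2 stood at 183 ± 7.76 and 172 ± 3.67 CPM (-0.09 ± 0.04, edgeR adjusted p = 0.0607) and passed without that same library (-0.12, adjusted p = 0.0250). The PLK2 ranges did not overlap, with 177 to 191.8 CPM in parental and 169 to 176 CPM in HCT116oxR cells. BTG2, an antiproliferative gene that acts with the CCR4-NOT deadenylase, lay higher in all HCT116oxR libraries, 47.0 to 48.3 CPM against 41.0 to 44.0, but did not pass (0.16 ± 0.07, edgeR adjusted p = 0.0788).

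CCNG2, the gene of the unconventional cyclin G2 that is tied to arrest, was the riser of this group. It held 54.3, 56.9 and 55.9 CPM in parental and 91.5, 71.2 and 84.5 CPM in HCT116oxR libraries. The HCT116oxR libraries were all higher but more spread than the parental ones (0.56 ± 0.07, edgeR adjusted p = 1.04e-12). Both G-type cyclins of the list rose while CDKN1A fell.

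**Figure D2:**
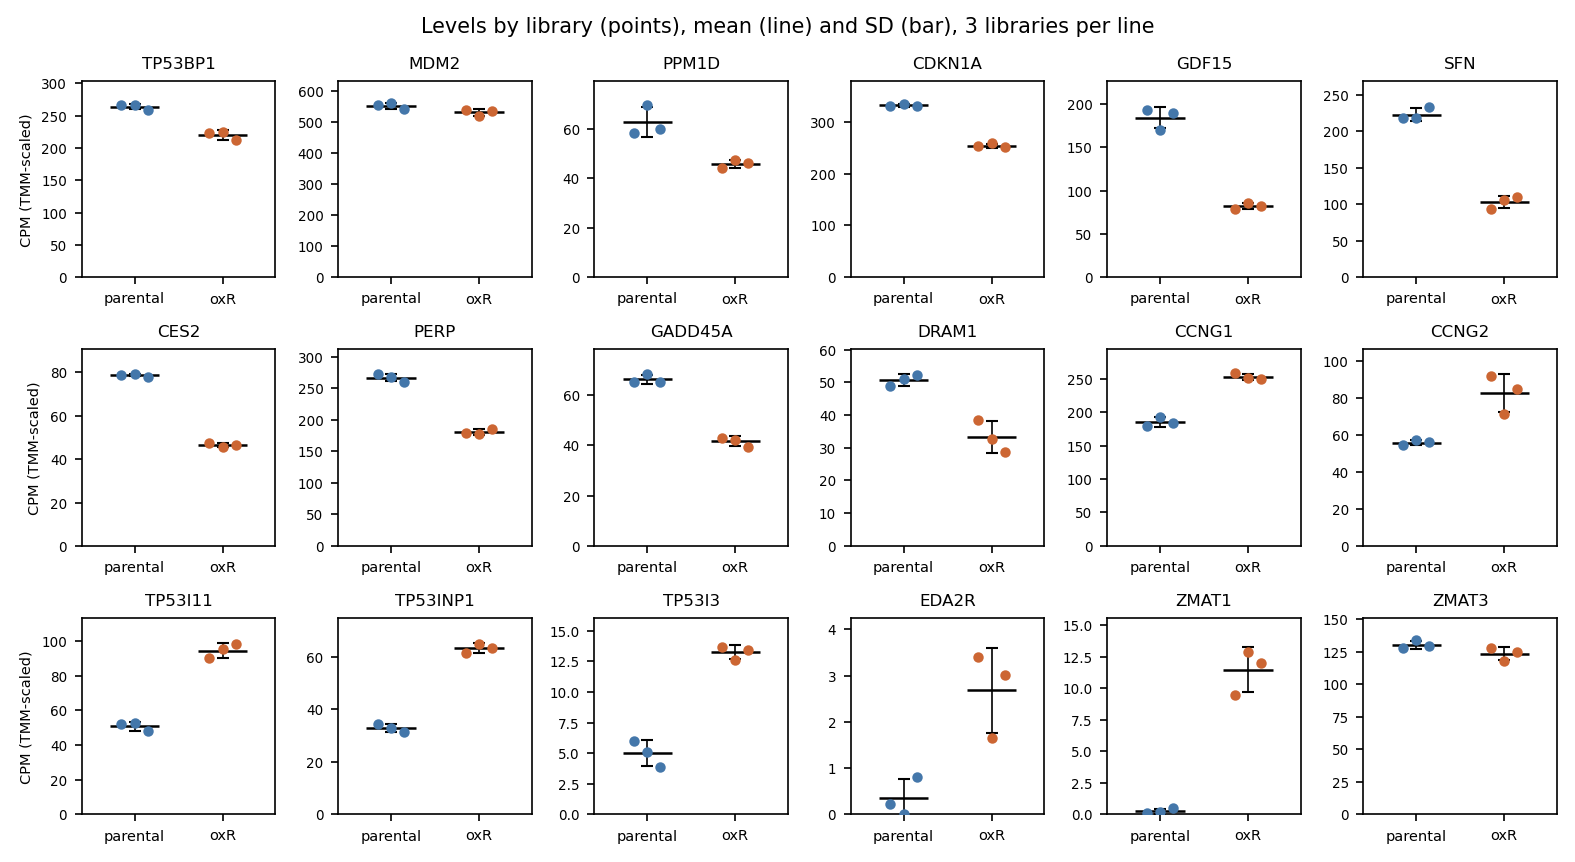
Level in TMM-scaled CPM (linear axis from 0) of 18 of the p53 regulators and target genes in each total RNA library. Points are the 3 libraries per line, parental HCT116 in blue and HCT116oxR in orange, the long line is the mean and the bar the SD; MDM2 and ZMAT3 have nearly level groups, while GDF15 falls from 184 to 82.3 CPM and ZMAT1 goes from 0.243 to 11.5 CPM.

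Genes of metabolism, redox balance and secretion split as well. GDF15 (chr19:18386158-18389176) encodes a secreted stress cytokine of the TGF-beta family that is induced by p53 and by the integrated stress response. Its libraries held 192.4, 170.3 and 189.5 CPM in parental and 78.9, 85.5 and 82.6 CPM in HCT116oxR cells. The lines were far apart, with parental replicate 2 the lowest of its group, and GDF15 was 2.24-fold lower (-1.16 ± 0.05, edgeR adjusted p = 3.32e-45). Its gene contains the hairpin of miR-3189, and its RNA and the hairpin's share bases. CES2, the carboxylesterase that activates the drug irinotecan, fell from 78.8, 79.1 and 78.1 CPM to 47.3, 45.4 and 46.4 CPM. The values inside each line were within 2 CPM of each other (-0.76 ± 0.06, edgeR adjusted p = 2.41e-20).

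TP53I3, also called PIG3, encodes a quinone oxidoreductase linked to reactive oxygen species and lies at chr2:24077433-24084834. It had 80, 61 and 48 parental and 186, 169 and 165 HCT116oxR counts. Every HCT116oxR library was higher, and the mean went from 5.02 ± 1.08 to 13.3 ± 0.577 CPM (1.40 ± 0.17, edgeR adjusted p = 1.91e-12). TP53I3 shares bases with FAM228B, which had 25 counts in the parental and 13 in the HCT116oxR libraries, summed. SESN1, a sestrin that holds back mTORC1 signalling, stood at 23.7 ± 1.38 and 25.5 ± 1.53 CPM (0.11 ± 0.10, edgeR adjusted p = 0.419). FDXR, the mitochondrial ferredoxin reductase, stood at 86.3 ± 5.88 and 90.7 ± 6.64 CPM (0.07 ± 0.06, edgeR adjusted p = 0.328). For SESN1 and FDXR the ranges of the lines overlapped.

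The list holds 8 genes of cell death and survival, of which 7 could be tested. PERP, a p53 target of the cell surface and desmosomes, held 273, 268 and 261 CPM in parental and 179, 177 and 185 CPM in HCT116oxR libraries. Its groups were clearly apart (-0.57 ± 0.04, edgeR adjusted p = 8.09e-27). NINJ1, whose product ruptures the plasma membrane of dying cells, fell from 33.7 ± 0.961 to 25.5 ± 3.88 CPM (-0.40 ± 0.09, edgeR adjusted p = 1.86e-04). Its HCT116oxR replicate 2, at 29.9 CPM, lay between the other HCT116oxR libraries and the lowest parental one, at 32.8 CPM.

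EDA2R and TP53I11 rose. EDA2R (chrX:66595637-66639269), the ectodysplasin receptor XEDAR of the TNF receptor family, had 3, 0 and 10 parental and 46, 22 and 37 HCT116oxR counts. All HCT116oxR libraries were higher, but the counts were few and the change of 2.92 ± 0.50 (edgeR, adjusted p = 4.48e-07) is imprecise. TP53I11, a p53-induced gene also called PIG11, held 51.8, 52.7 and 47.8 CPM in parental and 89.9, 95.2 and 98.0 CPM in HCT116oxR libraries. It was 1.86-fold higher (0.89 ± 0.06, edgeR adjusted p = 1.58e-26). TP53I11 shares bases with TSPAN18, which rose by 0.40 ± 0.08.

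The remaining genes of this group did not pass. TRIAP1, a survival gene whose product keeps the apoptosome from forming, stood at 0.01 ± 0.11 (edgeR, adjusted p = 0.969). RPS27L, a ribosomal protein gene that binds MDM2, stood at -0.07 ± 0.09 (edgeR, adjusted p = 0.588). PHLDA3, which restrains AKT, stood at -0.18 ± 0.10 (edgeR, adjusted p = 0.131) and passed without HCT116oxR replicate 1 (-0.27, adjusted p = 0.0371). The libraries of the lines overlapped for all 3. AEN, a nuclease of apoptosis, had 0, 1 and 0 parental and 4, 0 and 0 HCT116oxR counts, too few to compare.

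The zinc finger pair held the widest contrast. ZMAT3, a p53 target whose product binds RNA and steers splicing, stood at 131 ± 3.08 and 124 ± 5.10 CPM (-0.08 ± 0.05, edgeR adjusted p = 0.188). ZMAT1 (chrX:101882290-101932027), a gene with the same kind of zinc finger, is in the list without a stated link to p53. It had 1, 2 and 6 counts in the parental and 129, 173 and 148 counts in the HCT116oxR libraries. The parental libraries were near 0 and the HCT116oxR ones all far above them, and the change of 5.52 ± 0.33 (edgeR, adjusted p = 4.14e-32) rests on 9 parental counts in all. Of the 30 tested genes it had the highest fold change.

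TP53INP1 and DRAM1, of the autophagy and mitochondria group, moved in opposite directions. TP53INP1 encodes a stress protein that takes part in p53 phosphorylation and in autophagy. It held 34.6, 32.8 and 31.5 CPM in parental and 61.3, 64.9 and 63.4 CPM in HCT116oxR libraries, with no overlap (0.94 ± 0.07, edgeR adjusted p = 1.89e-22). DRAM1, a lysosomal membrane protein needed for p53-induced autophagy, held 48.8, 51.0 and 52.2 CPM against 38.4, 32.7 and 28.8 CPM. All its HCT116oxR libraries were lower, with more spread than in the parental cells (-0.60 ± 0.08, edgeR adjusted p = 1.77e-10). SPATA18, which acts in mitochondrial quality control, had 0 parental counts and 0, 2 and 3 counts in HCT116oxR.

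Each gene was set beside its chromosome neighbours, because genes along some chromosome segments shift together between these lines. TP53INP1 stood out. Of 38 tested protein-coding genes that start within 5 Mb of it on chromosome 8, 35 rose and 0 fell, with a median log2 fold change of 0.74 against its own 0.94. Its change and that of its neighbourhood cannot be told apart here. RRM2B, a p53-induced ribonucleotide reductase subunit further along chromosome 8, rose from 84.0 ± 2.52 to 157 ± 5.06 CPM (0.90 ± 0.05) among neighbours with a median of 0.62. FDXR did not pass although 56 of its 91 neighbours rose (median 0.33). NINJ1 fell beside neighbours with a median of -0.22, of which 26 of 49 fell and 7 rose. For the other genes that changed, the median of the neighbours lay between -0.09 and 0.14. ZMAT1 and EDA2R, both on the X chromosome, had neighbour medians of -0.02 and 0.11.

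**Figure D3:**
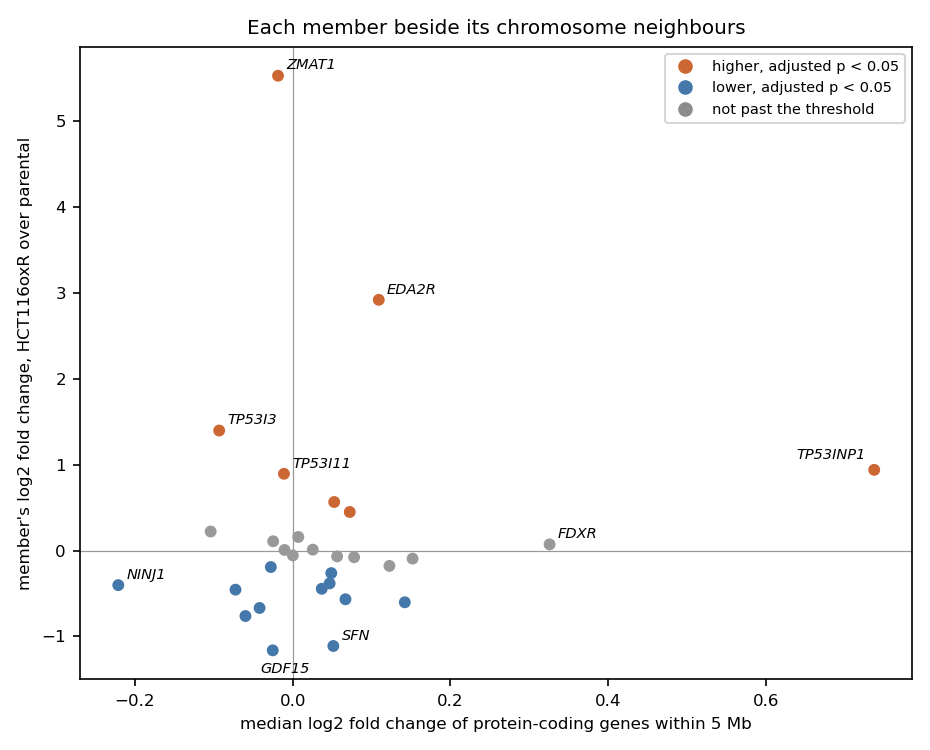
Log2 fold change of each tested p53 gene (vertical axis) against the median log2 fold change of tested protein-coding genes that start within 5 Mb of it (horizontal axis). Orange, blue and grey points are genes that rose, fell or did not pass; TP53INP1 is the rightmost point, with neighbours at 0.74, whereas GDF15, SFN, ZMAT1 and TP53I3 have neighbours near 0.

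Further genes of the pathway were counted from lists that are not drawn from the 33. Their counts stand beside the 44.1% called over all genes tested. Of 64 other p53 target genes 62 were tested, and 18 rose, 22 fell and 22 did not pass (64.5% called, median log2 fold change -0.04). The cell death targets among them went in different directions. BAX, the pore former of the outer mitochondrial membrane, fell from 37.3 ± 3.61 to 26.1 ± 1.32 CPM (-0.52 ± 0.09). The BH3-only genes BBC3 (PUMA) and PMAIP1 (NOXA) fell by 0.79 ± 0.14 and 0.77 ± 0.06, and the death receptor genes TNFRSF10B and TNFRSF10A by 1.06 ± 0.03 and 0.92 ± 0.07. FAS, a further receptor of the same family, had few counts and stood at -0.28 ± 0.29 (edgeR, adjusted p = 0.455). A further 5 cell death genes of the list are given here after their values were seen. APAF1, which encodes the core of the apoptosome, rose by 0.26 ± 0.06 (edgeR, adjusted p = 1.11e-04). The decoy receptor gene TNFRSF10D fell by 0.15 ± 0.05 (edgeR, adjusted p = 0.0141), with groups that overlapped, and did not pass without parental replicate 1 (-0.12, adjusted p = 0.0888) or without HCT116oxR replicate 2 (-0.12, 0.0759) or replicate 3 (-0.12, 0.117). PIDD1 (0.01 ± 0.07), TP53AIP1 (0.27 ± 0.49) and TNFRSF10C (-0.27 ± 0.18) did not pass.

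Targets that act in DNA repair and damage tolerance also differed among themselves. XPC and DDB2, which recognise damage for nucleotide excision repair, stood at 0.02 ± 0.10 and 0.10 ± 0.06 and did not pass (edgeR, adjusted p = 0.907 and 0.155). POLH, the polymerase that copies past platinum adducts, rose by 0.18 ± 0.05 (edgeR, adjusted p = 0.00434). REV3L, the catalytic subunit gene of another translesion polymerase, named after its value was seen, fell by 0.25 ± 0.07 (edgeR, adjusted p = 0.00355). SESN2, the stress-induced relative of SESN1, fell from 98.9 ± 3.13 to 52.7 ± 6.03 CPM (-0.90 ± 0.06). TIGAR, a regulator of glycolysis, had few counts and stood at -0.19 ± 0.36 (edgeR, adjusted p = 0.715). KITLG, the ligand of the KIT receptor, rose from 649.9 ± 31.2 to 1728 ± 73.9 CPM (1.41 ± 0.03), ASCC3, a helicase gene that acts in alkylation repair, rose by 0.70 ± 0.10, and the stress transcription factor gene ATF3 fell by 1.57 ± 0.09.

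Of 47 tested regulators and cofactors of p53, 13 rose, 13 fell and 21 did not pass (55.3% called, median 0.01). For this list and the next, the share called over all genes tested is 44.1%. CHEK1, the checkpoint kinase gene, rose from 51.4 ± 1.66 to 80.1 ± 1.35 CPM (0.64 ± 0.06), AURKA by 0.59 ± 0.05 and DYRK2, whose product phosphorylates p53 at a site linked to apoptosis, by 0.52 ± 0.05. JMY, a p300 cofactor gene, fell by 0.39 ± 0.14 (edgeR, adjusted p = 0.0196), a call lost without parental replicate 3 (-0.31, adjusted p = 0.110) and without HCT116oxR replicate 1 (-0.35, adjusted p = 0.0709). Of 50 genes repressed through p21 and DREAM 49 were tested, and 29 rose, 8 fell and 12 did not pass (75.5% called, median 0.22). The risers are led by mitotic genes, KIF20A (0.91 ± 0.04), CCNB2 (0.77 ± 0.06) and CENPA (0.71 ± 0.09), and among the fallers were EXO1 (-0.48 ± 0.05), a DNA repair nuclease gene, and MYBL2 (-0.41 ± 0.05), a transcription factor gene. Under the test against a fold of 1.5 only 2 of this list rose and 1 fell.

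**Figure D4:**
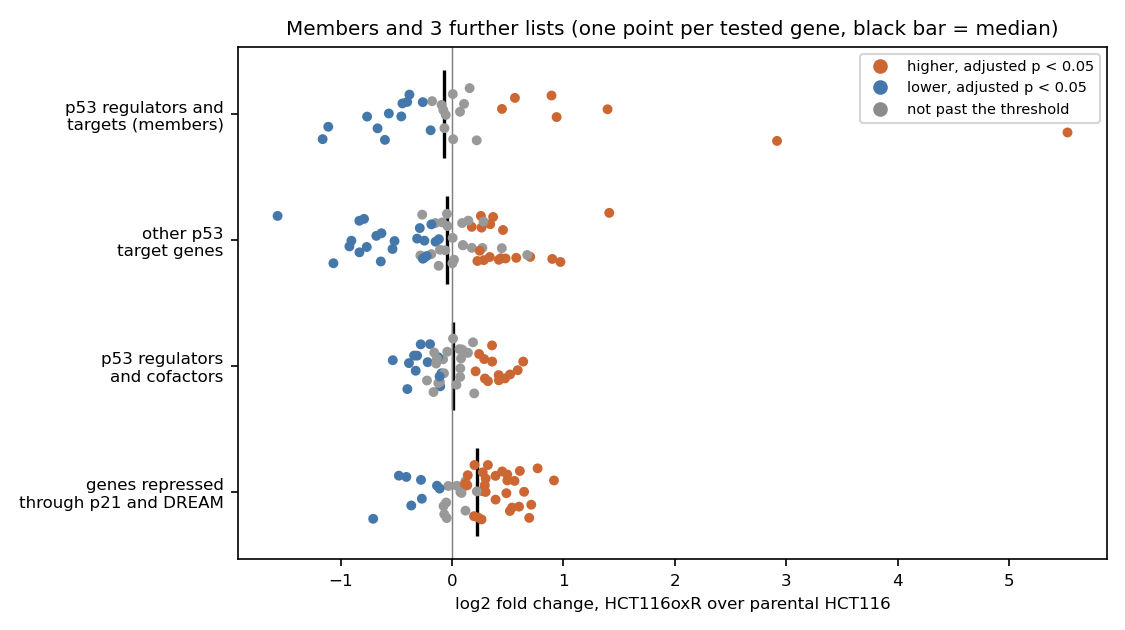
Log2 fold change of HCT116oxR over parental HCT116 for every tested gene of 4 lists, 1 point per gene, with the median as a black bar. Orange points rose, blue points fell and grey points did not pass; the medians of the p53 genes (-0.07), the other targets (-0.04) and the regulators (0.01) lie near 0 and that of the genes repressed through p21 and DREAM at 0.22.

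Of 10 long non-coding RNAs linked to p53, 4 were tested, and the rest were too low or not found by name among the counts. Of the 4, 1 rose and 3 fell (100% called), against 44.1% called over all genes tested. LINC-PINT, a p53-induced RNA, rose from 84.5 ± 1.48 to 119 ± 3.93 CPM (0.49 ± 0.05). LINC01021, also called PURPL, a p53-induced RNA that lowers p53 levels, fell from 37.4 ± 3.11 to 19.6 ± 2.07 CPM (-0.93 ± 0.10). NEAT1, the scaffold of nuclear paraspeckles, fell from 2344 ± 21.2 to 1779 ± 9.85 CPM (-0.40 ± 0.03). MIR34AHG, the host transcript of miR-34a, went from 16.8 ± 2.19 to 12.8 ± 1.53 CPM (-0.38 ± 0.13, edgeR adjusted p = 0.0121). That call was lost without parental replicate 2 (adjusted p = 0.0567), parental replicate 3 (0.0785) or HCT116oxR replicate 3 (0.114).

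The small RNA libraries gave a second view of the pathway, since p53 also induces miRNAs. Mature sequences are shown for some whose change stood out and for miR-34a-5p, the best known p53-induced miRNA. Those of miR-106b-5p, which did not pass, and miR-32-5p, whose change was small, are shown for the seeds they share with others. A shared seed (bases 2 to 8, in capitals) means that miRNAs can pair with the same targets. They are RefSeq entries for GRCh38.p14, and 44 of the 48 miRNAs examined had a sequence.
hsa-miR-34a-5p: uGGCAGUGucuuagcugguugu
hsa-miR-192-5p: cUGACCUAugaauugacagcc
hsa-miR-215-5p: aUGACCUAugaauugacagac
hsa-miR-194-5p: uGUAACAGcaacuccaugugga
hsa-miR-143-3p: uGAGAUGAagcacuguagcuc
hsa-miR-145-5p: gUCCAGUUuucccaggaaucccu
hsa-miR-17-5p: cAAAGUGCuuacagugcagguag
hsa-miR-20a-5p: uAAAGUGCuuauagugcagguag
hsa-miR-93-5p: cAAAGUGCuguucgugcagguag
hsa-miR-106b-5p: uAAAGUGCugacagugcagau
hsa-miR-25-3p: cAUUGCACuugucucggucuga
hsa-miR-32-5p: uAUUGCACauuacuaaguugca
The pair miR-192-5p and miR-215-5p has the same seed, as do miR-17-5p, miR-20a-5p, miR-93-5p and miR-106b-5p, and as do miR-25-3p and miR-32-5p. The miR-192 hairpin sits beside a copy of miR-194 on chromosome 11, the miR-215 hairpin beside another copy on chromosome 1, and miR-143 and miR-145 lie within 2 kb of each other on chromosome 5. Both miR-194 copies give the same miR-194-5p, so their reads cannot be told apart.

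Of 31 miRNAs listed as induced by p53, 23 were tested, and 6 rose, 8 fell and 9 did not pass, or 60.9% called. Over all 975 miRNAs tested 44.7% were called, 23.5% as higher and 21.2% as lower. The miR-192, miR-194 and miR-215 set fell in every tested arm. These arms are not independent, since the hairpins sit side by side. Besides, miR-192-5p and miR-215-5p differ at few bases and may share reads. For miR-192-5p, parental libraries held 10207, 10308 and 10387 counts and HCT116oxR libraries 3198, 3037 and 3115. No other miRNA of the 2 lists fell as far (648 ± 14.1 to 173 ± 3.74 CPM, -1.90 ± 0.05, edgeR adjusted p = 6.06e-11). miR-194-5p held 3669, 3657 and 3446 parental and 1886, 1678 and 1544 HCT116oxR counts, again with no overlap (-1.26 ± 0.07, edgeR adjusted p = 5.38e-08). miR-194-3p fell by 1.33 ± 0.25 from 4.84 ± 0.361 CPM. miR-215-5p had 204, 234 and 197 counts against 87, 76 and 158, with the third HCT116oxR library well above the other two yet below all parental ones (-1.16 ± 0.25, edgeR adjusted p = 0.00288). These miRNAs are known from intestinal epithelium and have been tied to p21 induction and to lower MDM2.

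The neighbours miR-143 and miR-145 rose. miR-145-5p held 1672, 1526 and 1334 counts in parental and 4370, 3852 and 4321 in HCT116oxR libraries. All HCT116oxR libraries were more than 2-fold above all parental ones in counts (95.0 ± 10.5 to 232 ± 13.8 CPM, 1.29 ± 0.09, edgeR adjusted p = 1.55e-07). Its other arm, miR-145-3p, rose by 0.89 ± 0.10. miR-143-3p held 1340, 1087 and 1223 counts against 2946, 2591 and 2499, again fully apart (0.96 ± 0.08, edgeR adjusted p = 1.26e-06). miR-143-5p, with 0 to 19 parental counts per library, stood at 1.59 ± 0.70 (edgeR, adjusted p = 0.0863).

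The miR-34 family, the set of miRNAs most directly under p53, showed small changes. miR-34a-5p held 324, 319.7 and 313 CPM in parental and 269, 263 and 282 CPM in HCT116oxR libraries. The groups did not overlap, and the fall of 0.23 ± 0.06 (edgeR, adjusted p = 0.00478) was lost without HCT116oxR replicate 2 (-0.18, adjusted p = 0.0741). miR-34c-5p, from a separate gene, had 207, 198 and 217 counts against 297, 316 and 329 and rose by 0.42 ± 0.12 (edgeR, adjusted p = 0.0126). The passenger arm miR-34a-3p stood at -0.49 ± 0.29 (edgeR, adjusted p = 0.185). The miR-34b arms and miR-34c-3p had at most 8 counts in any library and were not tested.

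Other miRNAs of that list moved by less than 1 on the log2 scale. miR-15a-5p, from the cluster deleted in chronic lymphocytic leukaemia, fell from 45.6 ± 1.06 to 25.3 ± 1.74 CPM (-0.85 ± 0.09, edgeR adjusted p = 1.35e-05), while miR-16-5p, which shares its seed and is also made from a second gene, stood at -0.13 ± 0.06 (edgeR, adjusted p = 0.0823). miR-200c-3p and miR-141-3p, epithelial miRNAs of the same cluster, went opposite ways, by 0.18 ± 0.05 and -0.25 ± 0.06. miR-29a-3p rose by 0.30 ± 0.04, and miR-107, made from an intron of PANK1, stood at 0.15 ± 0.06 (edgeR, adjusted p = 0.0634). miR-3189-3p, from inside GDF15, had 32, 36 and 54 parental and 27, 22 and 24 HCT116oxR counts, no overlap but few reads (-0.92 ± 0.32, edgeR adjusted p = 0.0335). It was lost under 8 of 11 other settings, with adjusted p from 0.0541 to 0.163 in those, so its fall alongside GDF15 is not firm.

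The other list holds 17 miRNAs reported to target MDM2, MDM4, CDKN1A or other core genes of the pathway. Of these 16 were tested, and 9 rose, 2 fell and 5 did not pass. That is 68.8% called, against 44.7% of all miRNAs tested, with a median of 0.26 in the list. Of the 6 with the seed AAAGUGC, reported to act on CDKN1A, 5 rose, namely miR-17-5p (0.66 ± 0.04), miR-20b-5p (0.65 ± 0.11), miR-106a-5p (0.57 ± 0.08), miR-20a-5p (0.56 ± 0.04) and miR-93-5p (0.52 ± 0.05). For miR-17-5p this was 2936 ± 81.4 to 4625 ± 56.7 CPM (edgeR, adjusted p = 1.84e-07), with all HCT116oxR libraries higher. The remaining member, miR-106b-5p, made from the same MCM7 intron as miR-93 and miR-25, stood at 0.15 ± 0.06 (edgeR, adjusted p = 0.0524). These 6 come from 3 clusters and differ at few bases, so they are not independent and may share reads. CDKN1A mRNA was lower in the same line, and whether the changes are linked was not tested.

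Further miRNAs of this list went both ways. miR-25-3p rose from 4489 ± 49.7 to 7169 ± 702 CPM (0.68 ± 0.06), miR-30d-5p by 0.42 ± 0.05, miR-125a-5p by 0.35 ± 0.07 and miR-125b-5p by 0.16 ± 0.05. The call for miR-125b-5p was lost without parental replicate 1 (adjusted p = 0.0749). miR-504-5p fell by 0.98 ± 0.28 (edgeR, adjusted p = 0.0126) on 22 to 60 counts per library, a call lost without parental replicate 1 (0.0529) or HCT116oxR replicate 2 (0.0595). miR-32-5p, which has the seed of miR-25-3p, fell by 0.21 ± 0.06 (edgeR, adjusted p = 0.0152), and that call was lost under 6 other settings.

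**Figure D5:**
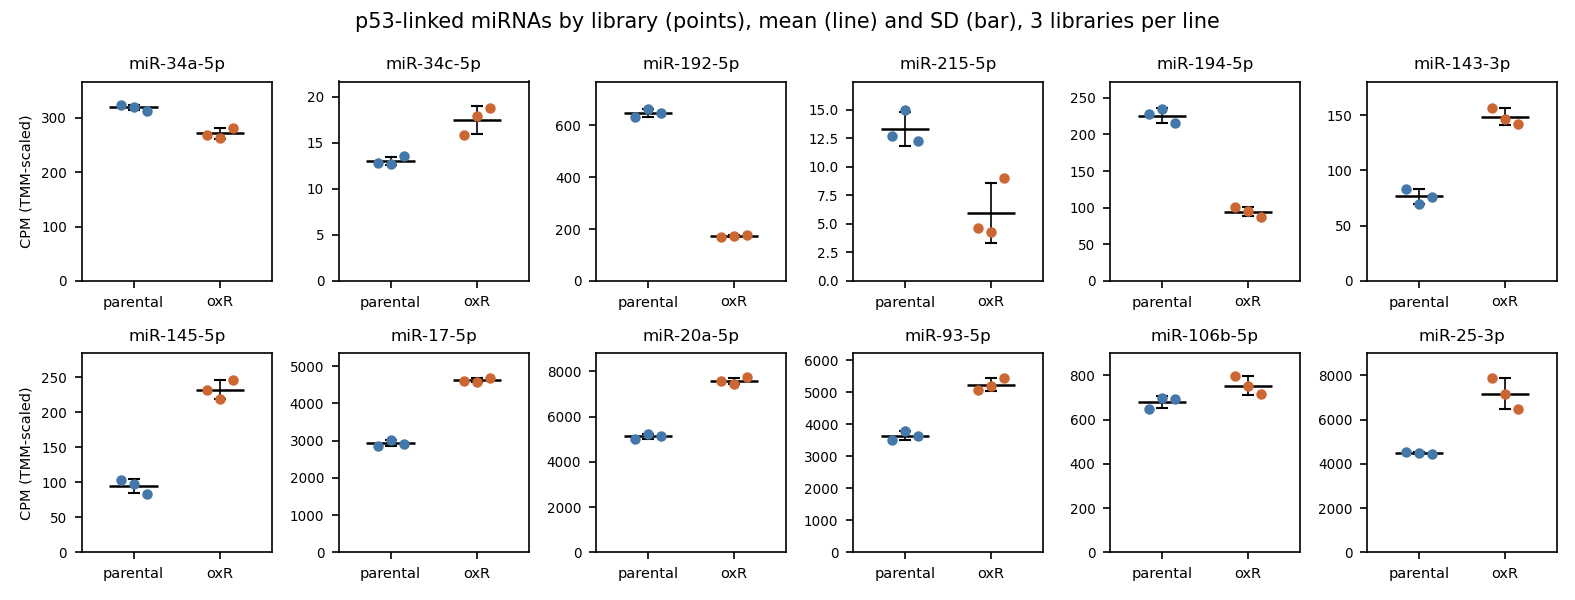
Level in TMM-scaled CPM (linear axis from 0) of 12 miRNAs in each small RNA library. Points are the 3 libraries per line, parental HCT116 in blue and HCT116oxR in orange, with the mean as a long line and the SD as a bar; miR-192-5p falls from 648 to 173 CPM and miR-145-5p rises from 95.0 to 232 CPM, whereas miR-34a-5p moves from 319 to 271 CPM.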

How the data were processed

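The authors deposited raw counts, in a table of 54261 genes for total RNA and a table of 2588 mature miRNAs for small RNA, and every column belonged to a sample. Reads were aligned to GRCh38 with HISAT2 (total RNA) or BWA (small RNA) per the submitters' processing notes. None of the sources used here gives versions, the counting tool, the annotation release or the use of strand. Genes that share bases may therefore share reads, and some are named as such beside their results. MDM2 with CPM, SESN1 with ARMC2, TP53INP1 with NDUFAF6 and CCNG2 with LOC101928864 also share bases.

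Each table was fitted as a whole in R 4.3.3 with edgeR 4.0.16: filterByExpr (minimum count 10, minimum total 15), TMM scaling, the robust quasi-likelihood F test, 2-sided, and Benjamini-Hochberg adjustment over all features. Each SE was derived from the fold change and its F statistic and is approximate. The common biological coefficient of variation was 4.77% for genes and 12.4% for miRNAs. Scripts were tested on simulated data. Libraries of a line differed by more than sampling noise. Chi-square over its degrees of freedom was 2.25 to 3.13 in total RNA. In small RNA it was 6.34 to 11.9 between parental and 26.1 to 86.1 between HCT116oxR libraries.

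All 33 genes are named. Of other lists, selected target genes and the miR-34, miR-192, miR-194, miR-215, miR-143, miR-145 and miR-107 families were named whatever their test, as were up to 3 genes per list and direction with the largest change past the threshold with a mean log2 CPM of 2 or more, and other miRNAs past it. Some genes that this rule names are not reported here. The members and lists were chosen with earlier results of these data known. Positions and sequences are from RefSeq (GRCh38.p14). Alternatives were other scaling, no filter, DESeq2 1.42.0, a replicate block, a fold of 1.5, and each library left out.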

Additional observations from a re-analysis of the deposited data

How the results depend on the processing

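The counts of p53 genes that rose (7) and fell (12) were the same under other library scaling, no filter on low counts, DESeq2 and the replicate block, and over the libraries left out in turn they were 7 and 12 to 13. No called gene or miRNA changed direction under these settings, while MDM4, TRIAP1, TP73, XPC, PIDD1 and TP53AIP1, which were not called, changed sign in some. With RLE size factors in edgeR all 100 named genes and miRNAs kept their side of the threshold, and with DESeq2 98 did. Replicate numbers did not pair the cultures (correlations of same-numbered deviations 0.07, -0.201 and -0.1 in total RNA), and with the replicate block 7565 genes were called against 7721, with miR-3189-3p the only named feature lost (-0.89). Tested against a fold of 1.5, 1430 genes passed, among them 3 p53 genes that were lower. In the other lists that test left 2 higher and 6 lower targets, 0 higher and 0 lower regulators, 2 higher and 1 lower DREAM genes, and 0 higher and 1 lower lncRNAs. Of miRNAs reported to target core genes of the pathway, 2 fell, 1 with no filter, 1 with DESeq2, and 0 to 3 over the libraries left out. Single calls that moved are given beside their results, apart from 2 miRNAs that passed in some settings, miR-143-5p (adjusted p = 0.0030 with no filter and 0.0311 without parental replicate 2) and miR-107 (0.0183 without TMM factors and 0.0219 without HCT116oxR replicate 2). Depth limits ZMAT1, EDA2R, TP73, AEN, SPATA18, TP63, FAS, TP53AIP1 and TIGAR, whose counts were few. Intervals and errors do not cover PCR duplicates.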

Other observations

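Several genes of the pathway lists were listed but too low to test. TP53TG1, a p53-induced non-coding RNA, had 0 counts in all 6 total RNA libraries, and PANDAR, transcribed next to CDKN1A, had 1 count in 1 HCT116oxR library. GLS2, the p53-induced glutaminase gene, had 1 count in 1 library of each line, and MEG3, a non-coding RNA that raises p53, had 1 parental and 2 HCT116oxR counts. PTP4A1 had 9 parental and 3 HCT116oxR counts, summed. NEK2, a mitotic kinase gene of the DREAM list, had 2 to 7 counts per library in either line.

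The list of regulators holds 4 ribosomal protein genes whose products bind MDM2, and these 4 were higher in HCT116oxR. Among all genes tested 22.3% rose. RPL5 rose from 411 ± 15.8 to 528 ± 12.4 CPM (0.36 ± 0.03), RPL11 by 0.29 ± 0.04, RPL23 by 0.36 ± 0.03 and RPS7 by 0.42 ± 0.03 (edgeR, adjusted p at most 1.53e-11), and NPM1, the nucleolar gene that also binds MDM2, by 0.30 ± 0.03. RPS27L, another ribosomal protein gene whose product binds MDM2, stood at -0.07 ± 0.09 and did not pass. The genes that rose were named after their values were seen, other ribosomal protein genes were not counted, and RPL5 and RPL23 contain small nucleolar RNA genes that share bases with them.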
